A study of Mus musculus with 30 samples.

Results

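Colon 26 and CT-26 are colon carcinoma lines of BALB/c mice, and tumors of both models were compared by RNA-seq at a volume of about 800 mm3. The members were the 4 CT-26 and the 4 Colon 26 tumor libraries that the labels place in that size class, which are 8 of the 30 libraries of the series. The other libraries came from tumors of 100 mm3 (8), tumors of 400 mm3 (8) and cultured cells (6). In the study the models were compared because they respond differently to antibodies against the checkpoint receptor PD-1.

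Both groups were made from female BALB/c mice that carried cells injected under the skin of the right flank, so the host strain, sex and site were shared and the implanted line was the variable. The age of the mice is not given in the sources used here. The treatment text attached to every sample speaks of antibody dosing, but no label assigns an antibody to any of these 8 tumors. The measured volumes were 938.57, 810.36, 822.82 and 853.76 mm3 for CT-26 tumors 1 to 4 and 963.18, 828.53, 807.93 and 858.36 mm3 for Colon 26 tumors 1 to 4. Each model is 1 line grown under the skin and not in the colon, and the lines came from different suppliers (ATCC for CT-26, RIKEN and Nanjing CoBioer for Colon 26), so line, supplier and passage history cannot be told apart.

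A syngeneic tumor is a mixture of cancer cells with the host's own leukocytes, vessels and connective tissue, and RNA from the whole piece reads all of them together. Type I and type II interferons, released by infected or activated cells, signal through JAK kinases and STAT factors to a large set of interferon-stimulated genes, and in tumors that set is known to be high where cytotoxic lymphocytes are active. Fewer cells of a type and less RNA per cell cannot be told apart in such bulk samples, and a transcript made by the cancer cells cannot be told apart from the same transcript made by host cells unless the cultured lines are looked at as well.

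The deposited estimated counts summed to 26291235 to 35681914 per CT-26 library and to 26898014 to 32805650 per Colon 26 library. Across genes, log2 CPM (counts per 1000000 counts of the library, after TMM scaling) correlated at 0.985 to 0.993 between CT-26 tumors (6 pairs), at 0.990 to 0.993 between Colon 26 tumors (6 pairs) and at 0.948 to 0.956 between models (16 pairs). CT-26 tumor 3 stood apart by its skeletal muscle transcripts, whose summed level was 444 CPM against 25.5 to 87.2 CPM in the other CT-26 tumors and 7.70 to 8.70 CPM in Colon 26. CT-26 tumor 4 stood apart by skin keratinocyte transcripts, with 0.151, 0.262, 0.0337 and 50.4 CPM of Krt14 in CT-26 tumors 1 to 4, and with a summed keratinocyte level of 92.0 CPM against 4.89 to 6.41 CPM in the others. Without these 2 tumors 2322 genes were called (14.4% of those tested), and 1902 of them were among the genes called with all 8 tumors.

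Of 15521 genes tested, 2192 were called differentially expressed (DE), which is 14.1%. A call needed an adjusted p of at most 0.1 in edgeR's quasi-likelihood test with Benjamini-Hochberg adjustment and a log2 fold change of at least 1 in either direction, with positive values meaning higher in Colon 26. Higher in Colon 26 were 1009 genes (6.5% of those tested) and lower were 1183 (7.62%). The adjusted p alone was passed by 9213 genes, and 8996 of the 15521 had an unadjusted p under 0.05. The 4 CPM values of one model lay entirely above those of the other for 1985 of the called genes (90.6%), against 48.4% of all genes tested. A log2 fold change of 3 or more was reached by 134 of the genes higher in Colon 26 and by 212 of the genes lower in it. The median log2 fold change of all genes tested was -0.0057.

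The most extreme differences were of genes that were near 0 in one model, and for most of them the cultured lines showed the same direction. These leading genes were picked from called genes whose models did not overlap, so that separation is part of their selection. Slc1a2 (chr2:102658659-102790784, plus strand, GRCm38), which encodes the glial glutamate transporter GLT-1, had 39.5, 61.3, 50.7 and 29.02 CPM in CT-26 tumors 1 to 4 and 0, 0.0298, 0.0653 and 0 CPM in Colon 26 tumors 1 to 4. Its counts were 5592 in the CT-26 group against 3 in the Colon 26 group, a ratio of 1869 with a 95% counting interval from 639 to 9068, and its fitted log2 fold change in culture was -11.61. Rhox5 (chrX:37804842-37808876, plus strand), an X-linked homeobox gene of the reproductive tract, had 137, 155, 149 and 157 CPM in CT-26 and 0.158, 0.745, 0.294 and 0.477 CPM in Colon 26 (log2 fold change -8.46, SE 0.22, adjusted p = 1.3e-08). Syt1, a calcium sensor of synaptic vesicles, was at 0 counts in all 4 Colon 26 libraries and at 1431 counts in CT-26 together, which makes it at least 478-fold lower in Colon 26 against a floor of 3 counts over the group.

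Other genes lower in Colon 26 shared that pattern. Ndst3 and Ndst4, a pair of enzymes that modify heparan sulfate, had log2 fold changes of -6.07 (SE 0.32, adjusted p = 4.8e-07) and -6.49 (SE 0.39, adjusted p = 1e-06), with 21.3, 23.7, 34.3 and 37.5 CPM of Ndst3 in CT-26 and 0.729, 0.238, 0.261 and 0.513 CPM in Colon 26. Rgs17, which shortens G protein signaling, fell by 7.60 on the log2 scale (SE 0.25, adjusted p = 3.3e-08). Ogdhl, a mitochondrial 2-oxoglutarate dehydrogenase subunit, was steady within each model, with 28.9, 31.1, 29.4 and 28.3 CPM in CT-26 and 0.222, 0.417, 0.229 and 0.587 CPM in Colon 26 (log2 fold change -6.34, SE 0.21, adjusted p = 3.3e-08). Car6, a secreted carbonic anhydrase, varied more among the CT-26 tumors than Ndst3 and Ogdhl, with 6.64, 15.8, 43.4 and 82.02 CPM there and 0.5701, 0.268, 0.6204 and 0.403 CPM in Colon 26. The log2 fold change of Car6 was -6.31 (SE 0.85, adjusted p = 0.00016), and without CT-26 tumor 4 it was -5.56. In culture the log2 fold changes were -6.77 for Ndst3, -6.18 for Ndst4, -8.02 for Rgs17, -9.80 for Ogdhl and -1.80 for Car6.

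On the other side, Dnah1 (chr14:31260375-31323896, minus strand), a dynein heavy chain of motile cilia, was present in every Colon 26 tumor and near 0 in CT-26. It had 0.792, 0.466, 0.707 and 0.374 CPM in CT-26 and 217, 206, 209 and 210.4 CPM in Colon 26 (log2 fold change 8.51, SE 0.14, adjusted p = 5.8e-10). Fras1 (chr5:96373955-96784728, plus strand), a basement membrane protein of epithelia, had 0.0754, 0.0582, 0.0337 and 0.125 CPM in CT-26 and 35.7, 26.8, 29.6 and 29.9 CPM in Colon 26 (log2 fold change 8.62, SE 0.21, adjusted p = 8.4e-09). The Colon 26 values of both genes spread by less than a factor of 1.5 among tumors. Slc9a2, a sodium-hydrogen exchanger of epithelial membranes, was 8.58 higher on the log2 scale (SE 0.31, adjusted p = 5.5e-08) and 9.51 higher in culture. Without CT-26 tumor 3 the value of Slc9a2 was 9.94.

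Secreted proteins were also among the genes that rose most in Colon 26. Bmp4, a ligand of the bone morphogenetic protein family, had 0.226, 0.524, 0.404 and 0.374 CPM in CT-26 and 26.4, 33.8, 35.03 and 25.6 CPM in Colon 26 (log2 fold change 6.26, SE 0.21, adjusted p = 3.3e-08). Cx3cl1, the chemokine fractalkine that attracts cells bearing Cx3cr1, had 2.45, 1.95, 1.55 and 0.965 CPM in CT-26 and 107, 62.3, 62.8 and 82.7 CPM in Colon 26 (log2 fold change 5.52, SE 0.27, adjusted p = 2.9e-07). Htra1, a secreted serine protease, had 5.62, 6.37, 6.06 and 7.26 CPM in CT-26 and 147, 171, 141 and 144 CPM in Colon 26 (log2 fold change 4.57, SE 0.10, adjusted p = 4.4e-09). For these 3 genes the log2 fold changes in culture were 11.20, 8.35 and 4.11. Crtam, an adhesion receptor known from activated T cells and NK cells, was 5.75 higher on the log2 scale in Colon 26 tumors (SE 0.31, adjusted p = 4.9e-07) and 8.39 higher in cultured Colon 26 cells, where no leukocytes had been added.

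**Figure D1:**
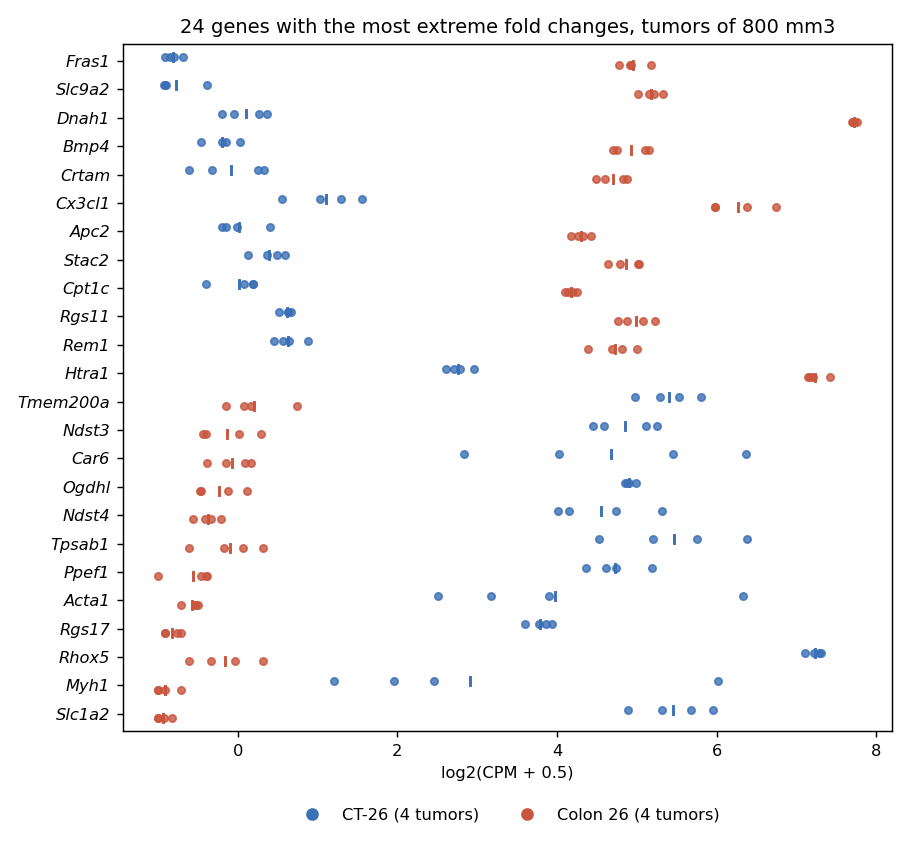
Expression of the 12 protein coding genes with the largest and the 12 with the smallest log2 fold change by the naming rule, on the axis log2(CPM + 0.5). Each point is 1 tumor of 800 mm3 and each short line the mean of a model. The rule took only genes whose models do not overlap, and the widest spread is in the CT-26 values of Acta1, Car6 and Myh1.

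Interferon-stimulated genes were lower in Colon 26 tumors. Of the 50 members of the list, all were tested, 30 were called lower (60.0%, against 7.62% of all genes tested) and 0 higher, and 49 had a negative log2 fold change. The median over the list was -1.33, beside -0.0057 over all genes. The models did not overlap for 28 of the 50 members in the lower direction (56.0%, against 25.6% of all genes tested). The list's summed level was 6089, 5261, 3557 and 2609 CPM in CT-26 tumors 1 to 4 and 1309, 1978, 2565 and 2059 CPM in Colon 26 tumors 1 to 4, so the lowest CT-26 tumor, number 4, and the highest Colon 26 tumor, number 3, nearly met. Leaving out any 1 tumor gave between 28 and 36 genes called lower.

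The promoters of 3 of these genes are shown because interferon-activated factors read a short element there, the interferon-stimulated response element. The 110 bases before the start of each gene are from RefSeq promoter windows (GRCm38.p6), with matches to its core (GAAA, any 2 bases, GAAA) on either strand in capitals. Oas1a (chr5:120907526-120907635, minus strand) and Gbp3 (chr3:142559934-142560043, plus strand, the first of 2 windows) held 2 overlapping matches each, and Tgtp1 (chr11:48992247-48992356, minus strand) held 1.
Oas1a: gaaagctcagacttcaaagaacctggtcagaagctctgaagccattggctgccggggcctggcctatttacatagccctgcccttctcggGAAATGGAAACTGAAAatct
Gbp3: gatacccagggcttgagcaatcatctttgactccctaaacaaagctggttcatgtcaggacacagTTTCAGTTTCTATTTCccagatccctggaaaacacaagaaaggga
Tgtp1: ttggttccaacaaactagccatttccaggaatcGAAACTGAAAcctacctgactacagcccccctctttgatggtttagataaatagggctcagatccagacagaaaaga
Within 250 bases before the start, this element was found in 936 of 27025 genes with a promoter window (3.46%) and in 20 of the 33 list members that matched a window (60.6%). Among matched members it was found in 15 of 19 that were called lower (78.9%) and in 5 of 14 that were not called (35.7%). The windows printed here all held a match. Irf7, also called lower, held 0 in 250 bases, and so did the second window of Gbp3. Such a match is a description of letters and not of binding.

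Sensors and effectors against viral RNA were among the genes called lower. Oas1a, which makes the oligoadenylate that activates RNase L, had 92.7, 49.4, 35.7 and 26.8 CPM in CT-26 tumors 1 to 4 and 6.18, 8.49, 11.1 and 11.1 CPM in Colon 26 tumors 1 to 4 (log2 fold change -2.47, SE 0.37, adjusted p = 0.00029). Oas2, of the same enzyme family, had 135, 56.2, 48.9 and 32.2 CPM in CT-26 and 7.44, 16.9, 19.6 and 17.6 CPM in Colon 26 (log2 fold change -2.15, SE 0.44, adjusted p = 0.0022). All CT-26 tumors were above all Colon 26 tumors for both, with CT-26 tumor 1 highest. The Oas1 genes are close copies of each other, so reads may have been shared between them.

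The GTPases induced by type II interferon differed by a like amount. Gbp3, a guanylate-binding protein, had 213, 214, 130.2 and 83.7 CPM in CT-26 and 17.04, 30.1, 53.8 and 35.2 CPM in Colon 26 (log2 fold change -2.23, SE 0.37, adjusted p = 0.00059). Tgtp1, a T cell-specific GTPase whose copy Tgtp2 is nearly identical and could share its reads, had 101, 132, 60.2 and 40.98 CPM in CT-26 and 5.45, 14.1, 27.2 and 19.98 CPM in Colon 26 (log2 fold change -2.33, SE 0.47, adjusted p = 0.002). In both genes CT-26 tumors 3 and 4 were lower than CT-26 tumors 1 and 2 but remained above every Colon 26 tumor.

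Of the transcription factors of the response, Irf7, which amplifies type I interferon, had 258, 137, 94.8 and 60.4 CPM in CT-26 and 21.1, 43.96, 43.9 and 42.1 CPM in Colon 26 (log2 fold change -1.86, SE 0.41, adjusted p = 0.0033). Colon 26 tumor 1 was the lowest of its group. Stat2 stayed just inside the fold limit at -0.96 (SE 0.22, adjusted p = 0.0047). The receptors and kinases upstream did not show that direction as a group. Of 21 genes of interferon receptors and JAK-STAT signaling, 2 were called, both lower (9.52%, against 7.62% of all genes). Among them was the feedback inhibitor Socs2 (log2 fold change -1.36, SE 0.29, adjusted p = 0.0031), and without CT-26 tumors 3 and 4 the value of Socs2 was -0.81. The receptor chains Ifnar1 and Ifnar2 had log2 fold changes of 0.48 (SE 0.05, adjusted p = 4.8e-05) and 0.30 (SE 0.07, adjusted p = 0.0039), Jak1 of 0.49 (SE 0.05, adjusted p = 4.4e-05) and Jak2 of -0.58 (SE 0.07, adjusted p = 5.1e-05), all with models that did not overlap and all under the fold limit.

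Genes of antigen presentation by MHC class I, an interferon-responsive pathway, stayed mostly under the fold limit. Of 21 genes tested 1 was called lower (4.76%, against 7.62% of all genes, and 2 without CT-26 tumor 4), and the models did not overlap for 6 in that direction (28.6%, against 25.6%). The gene called was the immunoproteasome subunit Psmb9, with 119, 131, 100.3 and 62.7 CPM in CT-26 and 23.7, 44.9, 49.8 and 48.3 CPM in Colon 26 (log2 fold change -1.31, SE 0.26, adjusted p = 0.0019). B2m, the light chain of class I molecules, had 2146, 2291, 1884 and 1564 CPM in CT-26 and 1021, 1055, 1338 and 1310 CPM in Colon 26, a log2 fold change of -0.74 (SE 0.13, adjusted p = 0.001) that passed the adjusted p but not the fold limit. The heavy chains H2-D1 and H2-K1 had -0.61 (SE 0.11, adjusted p = 0.00077) and -0.45 (SE 0.13, adjusted p = 0.017), with overlapping models for H2-K1. None of the 13 MHC class II genes tested was called and 12 of them had a positive log2 fold change (median 0.67). At an unadjusted p under 0.05 there were 9 of the 13, against 8996 of all 15521 genes tested. DESeq2 called 0 class II genes, whereas 5 were called higher without CT-26 tumor 2 and 4 without Colon 26 tumor 1. Cd74, the class II invariant chain, had 317, 544, 471 and 311 CPM in CT-26 and 523, 679, 987 and 687 CPM in Colon 26 (log2 fold change 0.81, SE 0.22, adjusted p = 0.011), and H2-Aa had a log2 fold change of 0.81 (SE 0.26, adjusted p = 0.023).

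At the smaller sizes 46 (100 mm3) and 43 (400 mm3) of the 50 interferon-stimulated genes were called lower and 0 higher, against 13.2% and 14.3% of all genes called in either direction. In cultured cells 9 of 48 were called higher and 11 lower, with a median of -0.036, against 22.9% of all genes called. Oas1a had log2 fold changes of -3.26 at 100 mm3, -2.90 at 400 mm3 and -1.60 in culture, and Gbp3 had -2.996, -3.20 and 0.73. The test of the change in model difference from 100 to 800 mm3 called 0 of the 50 genes by edgeR (5 at an unadjusted p under 0.05, median 0.83), and that from 400 to 800 mm3 called 0 (7 at an unadjusted p under 0.05, median 0.80). DESeq2 called 0 in both tests.

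**Figure D2:**
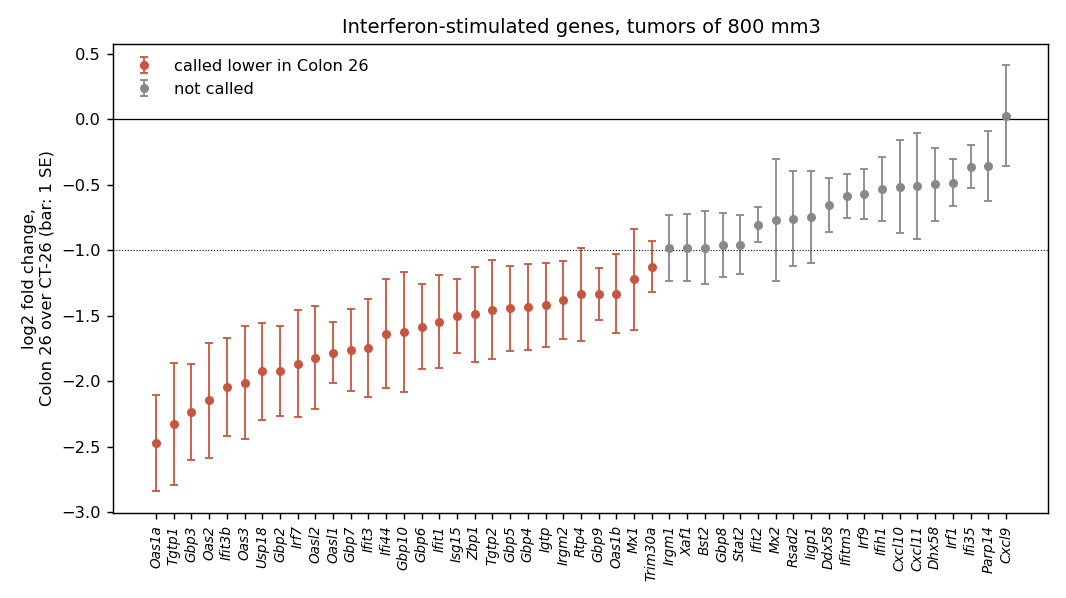
Log2 fold change of Colon 26 over CT-26 for 49 of the 50 interferon-stimulated genes in tumors of 800 mm3, ordered by value. Points are edgeR estimates and bars 1 SE on each side, the dotted line marks the fold limit of -1, and 48 of the 49 points lie under 0, of which the 29 in red were called.

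Cytotoxic lymphocyte transcripts were lower in Colon 26 tumors. Of 16 genes of NK and cytotoxic cells 10 were called lower (62.5%, against 7.62% of all genes tested) and 0 higher, with a median log2 fold change of -1.05. Gzma, a granule protease, had 39.5, 24.4, 23.8 and 10.4 CPM in CT-26 and 0.665, 3.93, 3.102 and 3.26 CPM in Colon 26 (log2 fold change -3.16, SE 0.49, adjusted p = 0.0004). Gzmb, which triggers death of target cells, had 78.98, 49.2, 46.9 and 18.7 CPM in CT-26 and 8.77, 6.08, 11.2 and 9.46 CPM in Colon 26 (log2 fold change -2.45, SE 0.37, adjusted p = 0.00034). Prf1, the pore-forming perforin, had 74.8, 51.1, 54.1 and 22.3 CPM in CT-26 and 14.8, 5.69, 8.72 and 8.98 CPM in Colon 26 (log2 fold change -2.40, SE 0.37, adjusted p = 0.00035). CT-26 tumor 1 was the highest and CT-26 tumor 4 the lowest of its group for all 3, and no value overlapped the Colon 26 tumors. Over the list, the models did not overlap in the lower direction for 4 of the 16 genes (25%, against 25.6% of all genes tested). Without CT-26 tumor 1 the list had 5 genes called lower and without CT-26 tumor 2 it had 6.

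T cell transcripts as a group did not pass the limits. None of 15 T cell genes was called (median -0.35, summed level 58.0 to 104 CPM in CT-26 and 59.5 to 93.6 CPM in Colon 26), by edgeR (2 at an unadjusted p under 0.05) or by DESeq2, although 2 were called lower without CT-26 tumor 4, 2 without Colon 26 tumor 2 and 3 without CT-26 tumors 3 and 4. Of 10 regulatory T cell and costimulatory genes 3 were called lower, against 7.62% of all genes tested. That count was 4 without Colon 26 tumor 2 and 2 without any other tumor. It was also 2 with RLE or library size scaling. Among the 3 was the inhibitory receptor Ctla4, with 3.88, 3.26, 4.61 and 1.87 CPM in CT-26 and 0.919, 1.67, 0.816 and 1.32 CPM in Colon 26 (log2 fold change -1.52, SE 0.32, adjusted p = 0.0025). Pan-leukocyte genes did not separate the models, with 0 of 12 called by edgeR (5 at an unadjusted p under 0.05, against 8996 of all 15521 genes) or DESeq2. Their summed level was 508 to 771 CPM in CT-26 and 643 to 864 CPM in Colon 26. The part of leukocyte number in the interferon and cytotoxic differences was not tested.

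Myeloid transcripts went several ways. Of 20 macrophage genes 19 had a positive log2 fold change, 4 did not overlap in that direction (a share of 1 in 5, against 22.7% of all genes) and 1 was called (5.0%, against 6.5% of all genes), Arg1, the arginine-degrading enzyme of alternatively activated macrophages, with 109.9, 69.1, 56.98 and 30.5 CPM in CT-26 and 162, 271, 155 and 176 CPM in Colon 26 (log2 fold change 1.52, SE 0.33, adjusted p = 0.0032). Csf1r, the receptor on which macrophages depend, was at 175, 187, 209.8 and 196 CPM in CT-26 and 295, 331, 364 and 242 CPM in Colon 26 (log2 fold change 0.68, SE 0.12, adjusted p = 0.00069), so its models did not overlap and the fold limit was not reached. Its ligand Csf1 had a log2 fold change of 0.96 (SE 0.10, adjusted p = 2.9e-05), and Ccr2, the receptor that draws monocytes into tissue, 0.86 (SE 0.15, adjusted p = 0.001). Of 9 monocyte genes 3 were called lower (33.3%, against 7.62% of all genes), Ly6c2 and Plac8 among them. Plac8 had 169, 113, 75.4 and 56.98 CPM in CT-26 and 8.39, 19.5, 16.6 and 23.8 CPM in Colon 26 (log2 fold change -2.60, SE 0.37, adjusted p = 0.00024). It was also lower in cultured Colon 26 cells, by a log2 fold change of -6.53, so the lines differed in this marker without host monocytes. Of 17 dendritic cell genes 1 was called in each direction (5.88%, against 6.5% of all genes higher and 7.62% lower). The one that was higher, the transcription factor Zbtb46, had log2 fold changes of 1.26 in tumors and 1.93 in culture. Without CT-26 tumor 1 or Colon 26 tumor 1, 2 macrophage genes were called higher and 0 dendritic cell genes lower, and the latter count was 3 without CT-26 tumor 4 and 4 without Colon 26 tumor 2. Without Colon 26 tumor 1, 2 dendritic cell genes were called higher.

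Mast cell transcripts were lower in Colon 26 tumors. Of 8 genes tested 7 were called lower in Colon 26 (87.5%, against 7.62% of all genes tested), with a median of -5.06. The mast cell and eosinophil list had 13 members, of which 5 did not pass the low count filter. Members near 0 in Colon 26, such as Tpsab1, passed it through CT-26 alone. For such members only the lower direction was open, so this share is partly set by the filter. The list's summed level was 83.0 to 216 CPM in CT-26 and 7.44 to 10.7 CPM in Colon 26. Cpa3, the carboxypeptidase of mast cell granules, had 14.1, 15.9, 23.8 and 16.3 CPM in CT-26 and 0.127, 0.685, 0.718 and 1.25 CPM in Colon 26 (log2 fold change -4.68, SE 0.41, adjusted p = 9.4e-06). Tpsab1, a tryptase, had 22.5, 36.4, 83.1 and 53.3 CPM in CT-26 and 0.158, 0.745, 0.392 and 0.5499 CPM in Colon 26 (log2 fold change -6.71, SE 0.51, adjusted p = 4.2e-06). The chymases Cma1 and Mcpt4 had log2 fold changes of -5.07 (SE 0.52, adjusted p = 2.6e-05) and -5.07 (SE 0.46, adjusted p = 1.2e-05), and without CT-26 tumors 3 and 4 the values were -5.99 for Tpsab1 and -4.47 for Mcpt4. Tpsab1 and its neighbor Tpsb2 (-5.33 (SE 0.47, adjusted p = 1e-05)) are close copies whose reads may have been shared. Kit, the receptor on which mast cells depend and which other cells also express, was the member not called, at -0.71 (SE 0.17, adjusted p = 0.005). No mast cell gene passed the low count filter in culture, and 8 of the mast cell genes were called lower at 100 mm3 and 8 at 400 mm3. Of all genes tested 13.2% and 14.3% were called at these sizes in either direction.

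Skeletal muscle transcripts were lower in all 4 Colon 26 tumors. All 15 genes tested were called lower (median -5.26), and the models did not overlap for 14 of them (93.3%). Among all genes tested these shares were 7.62% and 25.6%. Of the 18 list members 3 did not pass the low count filter. Members near 0 in Colon 26, such as Acta1 and Myh1, passed it through CT-26 alone. For such members only the lower direction was open, so their shares are partly set by the filter. Acta1, skeletal actin, had 14.5, 5.21, 80.2 and 8.501 CPM in CT-26 and 0.190, 0.208, 0.196 and 0.110 CPM in Colon 26 (log2 fold change -7.21, SE 1.125, adjusted p = 0.0004). Myh1, a myosin of fast fibers, had 3.39, 1.804, 64.05 and 5.01 CPM in CT-26 and 0, 0, 0.0326 and 0.110 CPM in Colon 26 (log2 fold change -8.98, SE 1.78, adjusted p = 0.0018). CT-26 tumor 3 was by far the highest, and without it the log2 fold changes were -5.69 for Acta1 and -6.54 for Myh1, whereas without Colon 26 tumor 4 that of Myh1 was -10.32. At 100 mm3 none of 18 muscle genes was called by edgeR (0 at an unadjusted p under 0.05) and at 400 mm3 1 was called, higher in Colon 26. All genes tested had 13.2% and 14.3% called at these sizes in either direction. The change in model difference from 100 to 800 mm3 was called by edgeR for 0 of 18 muscle genes, of which 17 had an unadjusted p under 0.05, and DESeq2 called 14 of them.

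Endothelial genes passed the limits in 1 case and fibroblast and pericyte genes in 10. Of 18 endothelial genes 1 was called higher (5.56%, against 6.5% of all genes), Vwf, the clotting factor carrier of endothelium, with 1.17, 1.22, 1.38 and 2.15 CPM in CT-26 and 4.69, 8.01, 3.13 and 5.02 CPM in Colon 26 (log2 fold change 1.81, SE 0.31, adjusted p = 0.00069). Pecam1, a junction protein of endothelium, had a log2 fold change in the other direction of -0.58 (SE 0.10, adjusted p = 0.001), under the fold limit. The models did not overlap for 8 of the 18 in the lower direction (44.4%, against 25.6% of all genes), and the summed endothelial level was 336 to 385 CPM in CT-26 and 261 to 322 CPM in Colon 26. Of 20 fibroblast and pericyte genes 8 were called higher (2 in 5, against 6.5% of all genes) and 2 lower (10.0%, against 7.62%). Cspg4, the NG2 proteoglycan of pericytes, had 3.32, 2.47, 3.13 and 3.43 CPM in CT-26 and 69.8, 59.3, 47.6 and 65.1 CPM in Colon 26 (log2 fold change 4.29, SE 0.15, adjusted p = 3.9e-08), and Dcn, the collagen-binding proteoglycan decorin, had 163, 230.4, 204 and 248 CPM in CT-26 and 30.9, 71.6, 26.9 and 68.9 CPM in Colon 26 (log2 fold change -2.09, SE 0.31, adjusted p = 0.0003). In culture Cspg4 was at 8.12 and Dcn at -5.26, so the cultured lines differed in both as well. Pdgfra, a receptor of fibroblasts, had log2 fold change 1.37, SE 0.09, adjusted p = 1.7e-06, and the matrix protein Postn had log2 fold change 1.90, SE 0.26, adjusted p = 0.0002.

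**Figure D3:**
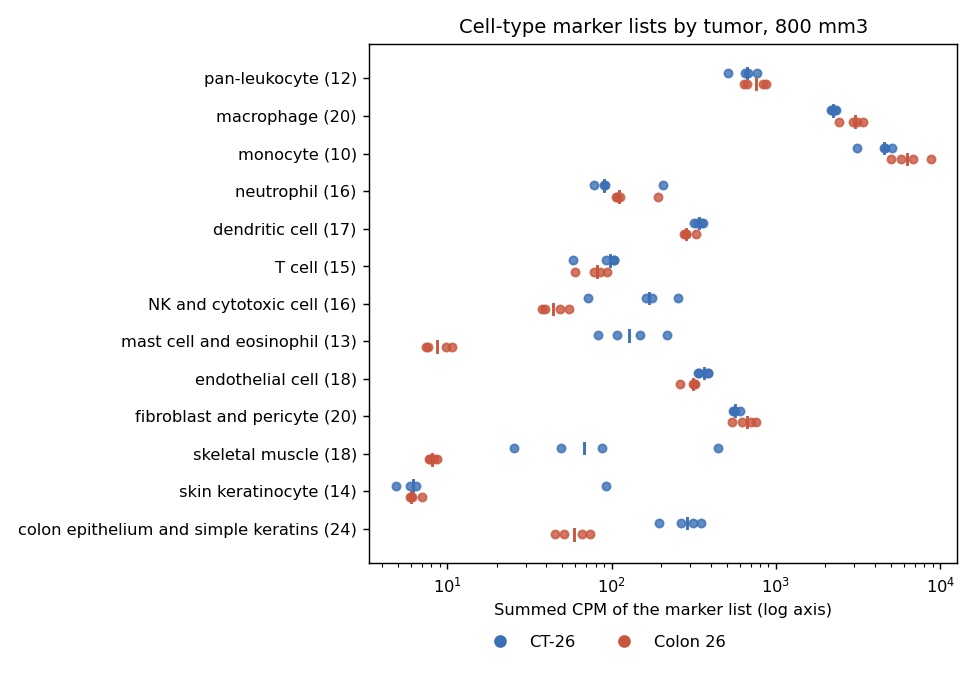
Summed CPM of 13 cell-type marker lists in each tumor of 800 mm3 on a log axis, with the number of measured members of each list in parentheses. Points are tumors and short lines medians, and the lists of NK and cytotoxic cells, mast cells, endothelium, skeletal muscle and colon epithelium have all CT-26 tumors above all Colon 26 tumors and the macrophage list all below, with CT-26 tumor 3 alone near 444 CPM for muscle and CT-26 tumor 4 alone near 92 CPM for keratinocytes.

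Genes of colon epithelium and simple keratins differed in both directions. The defining genes Vil1 and Epcam did not pass the low count filter, with at most 0.268 CPM of Vil1 and 1.13 CPM of Epcam in any tumor, so these defining markers of the labelled origin were near 0. Cdx2, the intestinal homeobox factor, had 0.189, 0.0582, 0.3704 and 0.156 CPM in CT-26 and 6.21, 4.94, 5.29 and 4.99 CPM in Colon 26 (log2 fold change 4.79, SE 0.35, adjusted p = 3e-06), and 5.47 without CT-26 tumors 3 and 4. Krt20, a keratin of mature colon cells, went the opposite way, with 91.3, 173, 188 and 241 CPM in CT-26 and 23.1, 5.03, 4.11 and 14.6 CPM in Colon 26 (log2 fold change -3.89, SE 0.53, adjusted p = 0.00016). Ceacam1, an adhesion molecule of epithelial and immune cells, had 33.03, 37.7, 59.7 and 53.7 CPM in CT-26 and 3.48, 5.897, 3.92 and 4.802 CPM in Colon 26 (log2 fold change -3.34, SE 0.23, adjusted p = 2.2e-06). Of the 12 genes of this list that were tested 5 were called higher (41.7%, against 6.5% of all genes) and 5 lower (41.7%, against 7.62%). The list had 24 members, of which 12 did not pass the low count filter. Cdx2, near 0 in CT-26, passed it through Colon 26 alone. For such a member only the higher direction was open, so these shares are partly set by the filter. The list's summed level was 193 to 348 CPM in CT-26 and 45.2 to 74.0 CPM in Colon 26. The count of genes called higher was 3 without CT-26 tumor 3, without CT-26 tumor 4, without Colon 26 tumor 1 or without Colon 26 tumor 2. In culture the log2 fold changes were 5.30 for Cdx2, -2.16 for Krt20 and -5.05 for Ceacam1.

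Ligands of the Wnt pathway, which stabilizes beta-catenin in the intestinal crypt, were higher in Colon 26. Of 7 ligands tested 4 were called higher (57.1%, against 6.5% of all genes tested) and 0 lower, and DESeq2, which tested more low genes, called 7. The list had 19 members, of which 12 did not pass the low count filter. A ligand near 0 in CT-26 could pass it through Colon 26 alone, with only the higher direction open. This share may thus be partly set by the filter. Wnt10b had 9.54, 10.8, 7.61 and 7.63 CPM in CT-26 and 143, 112, 126 and 129 CPM in Colon 26 (log2 fold change 3.84, SE 0.13, adjusted p = 3.6e-08). Wnt6 had 0.829, 0.349, 0.808 and 0.311 CPM in CT-26 and 11.7, 8.82, 9.11 and 10.6 CPM in Colon 26 (log2 fold change 4.14, SE 0.29, adjusted p = 2.7e-06). Wnt5a, a ligand that often signals without beta-catenin, had 2.71, 2.33, 3.54 and 4.24 CPM in CT-26 and 17.9, 16.2, 15.4 and 14.7 CPM in Colon 26 (log2 fold change 2.32, SE 0.18, adjusted p = 4.4e-06). The fourth was Wnt5b, at 2.82 (SE 0.43, adjusted p = 0.00033). For all 4 the models did not overlap.

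Genes of the list of receptors and secreted modulators and genes of the target list were called in both directions, more often higher. Of 21 receptors and secreted modulators 5 were called higher (23.8%, against 6.5% of all genes) and 2 lower (9.52%, against 7.62%). The pair called lower were receptors, Fzd3 with 13.6, 16.9, 18.8 and 23.01 CPM in CT-26 and 0.412, 0.596, 0.229 and 0.5499 CPM in Colon 26 (log2 fold change -5.33, SE 0.26, adjusted p = 3e-07) and Fzd6 with a log2 fold change of -2.77 (SE 0.26, adjusted p = 1.5e-05). Ptk7, a co-receptor of planar polarity, was higher at 1.88 (SE 0.12, adjusted p = 1.6e-06). The genes called higher also included the secreted modulator Sfrp2, at 2.14. Sfrp2 was not called without CT-26 tumor 2, 3 or 4 or without Colon 26 tumor 2, and without Colon 26 tumor 2 its value was 0.92. Of 15 feedback targets and Tcf factors 4 were called higher (26.7%, against 6.5% of all genes) and 1 lower (6.67%, against 7.62%). Axin2, the feedback inhibitor used as a readout of beta-catenin, had 0.226, 0.175, 0.269 and 0.218 CPM in CT-26 and 1.81, 1.76, 1.63 and 1.503 CPM in Colon 26 (log2 fold change 2.90, SE 0.23, adjusted p = 5e-06). It passed the low count filter through Colon 26 alone, so only the higher direction was open to it. Of the 22 members of this list 7 did not pass the filter, so its shares are partly set by the filter. Lef1, a Tcf-family factor, was the gene called lower, with 4.94, 5.65, 7.17 and 5.39 CPM in CT-26 and 0.697, 1.22, 0.882 and 0.6599 CPM in Colon 26 (log2 fold change -2.73, SE 0.23, adjusted p = 7.1e-06). The inhibitor Apcdd1 was higher (log2 fold change 2.12, SE 0.15, adjusted p = 2.4e-06).

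Growth factor ligands and receptors of other families were called in both directions within each family. Among 32 BMP and TGF-beta genes 8 were called higher (25%, against 6.5% of all genes), Bmp4 and Tgfb2 (log2 fold change 3.44, SE 0.28, adjusted p = 5.9e-06) among them, and 3 lower (9.38%, against 7.62%), among them the activin subunit Inhba (log2 fold change -1.39, SE 0.14, adjusted p = 2.7e-05). Of 25 genes of EGFR, Met and FGF signaling 6 were called higher (24%) and 4 lower (16%), and leaving out CT-26 tumor 1 or Colon 26 tumor 4 gave 10 higher. The receptors Erbb2 and Fgfr1 rose in Colon 26, Erbb2 from 37.97, 33.9, 34.95 and 31.3 CPM in CT-26 to 96.7, 90.7, 91.4 and 102 CPM in Colon 26 (log2 fold change 1.46, SE 0.07, adjusted p = 2.9e-07), and Fgfr1 at 1.40 (SE 0.14, adjusted p = 2.1e-05). The EGFR ligands Tgfa, Btc and Areg went the other way. Tgfa had 8.97, 8.701, 8.96 and 7.38 CPM in CT-26 and 0.348, 0.447, 0.294 and 1.47 CPM in Colon 26 (log2 fold change -3.76, SE 0.41, adjusted p = 4.1e-05), and -4.53 without Colon 26 tumor 4. Btc had 26.96, 36.9, 58.2 and 49.4 CPM in CT-26 and 10.6, 4.44, 3.13 and 8.25 CPM in Colon 26 (log2 fold change -2.70, SE 0.36, adjusted p = 0.00016). Areg had log2 fold change -2.13, SE 0.40, adjusted p = 0.0013, and -1.39 without CT-26 tumors 3 and 4.

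Guidance molecules first known from growing axons were among the called genes in both directions. Of 30 semaphorin, plexin and neuropilin genes 6 were called higher and 4 lower (33.3% in all, against 14.1% of all genes), and of 26 ephrin, netrin, Slit and Robo genes 7 were higher and 3 lower (38.5%). Sema7a, a membrane semaphorin that also acts on leukocytes, had 39.1, 41.4, 42.6 and 38.6 CPM in CT-26 and 139, 119, 127 and 114 CPM in Colon 26 (log2 fold change 1.63, SE 0.07, adjusted p = 1.9e-07). Efnb2, an ephrin ligand of developing vessels, had 56.1, 58.5, 48.9 and 42.5 CPM in CT-26 and 6.46, 5.18, 4.57 and 6.09 CPM in Colon 26 (log2 fold change -3.21, SE 0.14, adjusted p = 1.5e-07). Ntng2, a membrane-bound netrin, was higher at 4.05 (SE 0.18, adjusted p = 1.7e-07). None of these 3 genes had overlapping models, and the direction in culture was the same for each, with log2 fold changes of 6.28, -4.94 and 11.22.

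Matrix genes were called in both directions. Of 32 collagen genes 7 were called higher (21.9%, against 6.5% of all genes) and 4 lower (12.5%, against 7.62%), with 12 higher without CT-26 tumor 1 or without Colon 26 tumor 3, and 2 lower without CT-26 tumor 4. Col14a1, a collagen of fibril surfaces, had 12.7, 12.6, 9.19 and 11.3 CPM in CT-26 and 31.2, 57.2, 51.2 and 39.1 CPM in Colon 26 (log2 fold change 1.96, SE 0.19, adjusted p = 1.7e-05), and Col18a1, the basement membrane collagen that yields endostatin, was lower (log2 fold change -1.36, SE 0.14, adjusted p = 3.1e-05). Of 31 matrix proteases and inhibitors 6 were called higher (19.4%) and 5 lower (16.1%), the latter 3 without CT-26 tumor 1. Timp3, an inhibitor that is held in the matrix, had 30.9, 29.6, 35.8 and 31.4 CPM in CT-26 and 461, 177, 246 and 440.3 CPM in Colon 26 (log2 fold change 3.37, SE 0.29, adjusted p = 8.6e-06). Timp1, a soluble inhibitor, was lower, with 368, 413, 500.0 and 507 CPM in CT-26 and 176, 230.4, 165 and 215 CPM in Colon 26 (log2 fold change -1.18, SE 0.13, adjusted p = 4.8e-05). Itgb4, an integrin chain of hemidesmosomes, was lower at -1.51 (SE 0.23, adjusted p = 0.00035), and Itga3 was higher at 1.49 (SE 0.12, adjusted p = 6.7e-06).

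Genes induced by low oxygen were higher as single members. Of 34 hypoxia and glycolysis genes 5 were called higher (14.7%, against 6.5% of all genes tested) and 0 lower, with a median of 0.37, and the count was 3 without CT-26 tumor 4 and 8 without CT-26 tumor 1. Car9, the membrane carbonic anhydrase used as a hypoxia marker, had 29.4, 24.2, 14.8 and 5.54 CPM in CT-26 and 80.1, 165, 87.5 and 154 CPM in Colon 26 (log2 fold change 2.72, SE 0.44, adjusted p = 0.00052). Slc16a3, the lactate exporter MCT4, had 78.7, 61.2, 64.99 and 37.3 CPM in CT-26 and 116, 163, 140.1 and 180.2 CPM in Colon 26 (log2 fold change 1.31, SE 0.21, adjusted p = 0.00046). Neither gene overlapped between models, and CT-26 tumor 4 was the lowest of all for both. The glucose transporter Slc2a1 had a log2 fold change of 0.92 (SE 0.20, adjusted p = 0.0036), just under the fold limit.

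The 110 bases before the start of Car9 (chr4:43506916-43507025, plus strand) and Slc16a3 (chr11:120948957-120949066, plus strand) are printed to show ACGTG, the core that hypoxia-inducible factors read, in capitals on either strand (RefSeq, GRCm38.p6).
Car9: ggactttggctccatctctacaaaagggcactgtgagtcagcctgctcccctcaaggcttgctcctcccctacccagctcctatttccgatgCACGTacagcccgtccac
Slc16a3: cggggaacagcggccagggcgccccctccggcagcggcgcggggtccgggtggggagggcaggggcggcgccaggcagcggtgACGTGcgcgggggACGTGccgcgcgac
Within 250 bases before the start that core was found in 18.5% of 27025 genes, in 19 of 31 matched list members (61.3%), in 4 of the 5 called members (80.0%) and in 15 of the 26 members that were not called (57.7%).

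Proliferation genes were lower in Colon 26 by less than the fold limit. None of 35 was called by edgeR (30 at an unadjusted p under 0.05, against 8996 of all 15521 genes) or by DESeq2. Of the 35, 33 had a negative log2 fold change (median -0.45), and for 25 the Colon 26 tumors were all lower than the CT-26 tumors (71.4%, against 25.6% of all genes tested). Their summed level was 5141 to 5677 CPM in CT-26 and 3679 to 4033 CPM in Colon 26. Mki67, the proliferation marker Ki-67, had 598, 581, 593 and 589 CPM in CT-26 and 351, 361, 446 and 424 CPM in Colon 26 (log2 fold change -0.58, SE 0.08, adjusted p = 0.00022). Rrm2, a subunit of the enzyme that makes deoxynucleotides, had 169.9, 171, 161 and 172 CPM in CT-26 and 82.8, 92.8, 90.1 and 81.6 CPM in Colon 26 (log2 fold change -0.96, SE 0.06, adjusted p = 1.4e-06). In culture the direction was opposite, with 22 of the 35 called higher in Colon 26, 0 lower and a median of 1.21. Of all genes tested in culture 22.9% were called in either direction. The log2 fold changes in culture were 1.24 for Mki67 and 1.73 for Rrm2. The difference between tumor and culture was not tested. Leaving out 1 tumor gave at most 2 genes called, which was the case without CT-26 tumor 3 and without Colon 26 tumor 3.

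Stress genes were lower in Colon 26. Of 23 genes of the unfolded protein and amino-acid response 8 were called lower (34.8%, against 7.62% of all genes tested) and 1 higher (4.35%, against 6.5%). The count of genes called lower remained 8 whichever tumor was left out. Trib3, a pseudokinase induced by Atf4, had 63.2, 51.04, 114 and 134 CPM in CT-26 and 14.3, 14.5, 17.1 and 20.8 CPM in Colon 26 (log2 fold change -2.44, SE 0.29, adjusted p = 7.6e-05). Slc7a11, the cystine importer, had 23.6, 11.9, 23.6 and 27.5 CPM in CT-26 and 5.07, 3.57, 3.89 and 4.77 CPM in Colon 26 (log2 fold change -2.32, SE 0.24, adjusted p = 3.2e-05). Ddit3, the factor CHOP, had 53.2, 64.6, 115 and 170.2 CPM in CT-26 and 32.7, 25.5, 26.02 and 38.1 CPM in Colon 26 (log2 fold change -1.72, SE 0.33, adjusted p = 0.0015). CT-26 tumors 3 and 4 were the highest for Trib3 and Ddit3, and without them the log2 fold changes were -1.79 for Trib3 and -0.96 for Ddit3. Atf3 was the gene called higher, at 1.37 (SE 0.36, adjusted p = 0.0093). In culture 1 of the 23 genes was called higher and 2 lower, against 22.9% of all genes called there in either direction. The log2 fold changes in culture were 0.28 for Trib3, 0.52 for Slc7a11 and -1.65 for Ddit3.

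DNA repair and damage genes differed by few members. Of 18 genes of mismatch repair and DNA methylation 2 were called lower (11.1%, against 7.62% of all genes). Mlh3, a mismatch repair protein, was the larger difference, with 23.4, 24.3, 25.8 and 27.7 CPM in CT-26 and 5.92, 5.12, 5.06 and 4.22 CPM in Colon 26 (log2 fold change -2.31, SE 0.11, adjusted p = 2.9e-07). The other one was Pole, the leading-strand polymerase, which was at the fold limit (log2 fold change -1.02, SE 0.06, adjusted p = 8.1e-07) and was not called without CT-26 tumor 3 (-0.999), Colon 26 tumor 1 (-0.998) or Colon 26 tumor 2 (-0.974). Of 23 genes of the Cdkn2a locus and the p53 pathway 2 were called higher (8.70%, against 6.5% of all genes) and 1 lower (4.35%, against 7.62%). Pmaip1, the death gene Noxa, had 2.53, 1.98, 2.22 and 1.46 CPM in CT-26 and 33.3, 18.1, 26.7 and 34.8 CPM in Colon 26 (log2 fold change 3.79, SE 0.24, adjusted p = 1.3e-06), and 8.95 in culture. Of 23 antioxidant genes under Nrf2 1 was called higher (4.35%, against 6.5% of all genes) and 4 lower (17.4%, against 7.62%). The count called higher was 2 without any 1 of the CT-26 tumors or without Colon 26 tumor 4. Gsta1, a glutathione transferase, was the gene called higher (log2 fold change 3.84, SE 0.31, adjusted p = 6.2e-06), and Gstm2, of the same superfamily, was lower with 27.8, 27.6, 27.1 and 29.9 CPM in CT-26 and 5.38, 9.53, 7.05 and 7.18 CPM in Colon 26 (log2 fold change -1.95, SE 0.15, adjusted p = 4e-06). Glutathione transferase genes lie in clusters of close copies, so reads may have been shared among them.

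Secreted signals to leukocytes moved gene by gene. Of 30 chemokines 3 were called higher (10.0%, against 6.5% of all genes), Cx3cl1 and Cxcl14 among them. In the lower direction 1 was called (3.33%, against 7.62%), with 2 without CT-26 tumor 4 and 3 without Colon 26 tumor 2. Cxcl14 had 33.5, 27.1, 27.6 and 27.4 CPM in CT-26 and 118, 137, 122 and 135 CPM in Colon 26 (log2 fold change 2.15, SE 0.09, adjusted p = 1.1e-07). Cxcl1, which attracts neutrophils, was the chemokine called lower, with 49.4, 13.2, 17.5 and 10.3 CPM in CT-26 and 5.48, 3.75, 4.18 and 5.87 CPM in Colon 26 (log2 fold change -2.23, SE 0.46, adjusted p = 0.0023), and without CT-26 tumor 1 its log2 fold change was -1.49. Of 22 inflammatory cytokines and growth factors 3 were called higher (13.6%, against 6.5% of all genes) and 2 lower (9.09%, against 7.62%). The 3 were Gdf15, Il33 and Lif, and 5 genes were called higher without CT-26 tumor 1. Lif had 26.9, 16.4, 23.1 and 17.1 CPM in CT-26 and 47.6, 49.7, 56.4 and 44.2 CPM in Colon 26 (log2 fold change 1.25, SE 0.15, adjusted p = 8.9e-05), and Il33, an alarmin released from damaged cells, was at 1.70 (SE 0.30, adjusted p = 0.00087). Il11, of the same receptor family as Lif, was lower at -1.61 (SE 0.23, adjusted p = 0.00022).

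Checkpoint genes were called mainly in the lower direction. Of 25 checkpoint genes 1 was called higher (4.0%, against 6.5% of all genes) and 5 lower (1 in 5, against 7.62%), the latter count 3 without Colon 26 tumor 1. Cd274, the PD-1 ligand PD-L1, had 41.6, 36.1, 38.5 and 27.7 CPM in CT-26 and 18.7, 25.9, 31.1 and 31.7 CPM in Colon 26 (log2 fold change -0.42, SE 0.17, adjusted p = 0.061), with overlapping models, and had log2 fold changes of -1.56 at 100 mm3 and -1.79 at 400 mm3. The tests of a change in model difference from 100 and from 400 to 800 mm3 called 0 of the 25 checkpoint genes, by edgeR or DESeq2. In edgeR 2 and 6 of them had an unadjusted p under 0.05. Nectin2, a ligand of Tigit and of the activating receptor DNAM-1, had 30.2, 24.6, 24.7 and 25.04 CPM in CT-26 and 9.98, 10.8, 8.59 and 10.1 CPM in Colon 26 (log2 fold change -1.41, SE 0.10, adjusted p = 3e-06). Tigit and its other ligand Pvr were at -0.90 (SE 0.15, adjusted p = 0.00074) and -0.78 (SE 0.13, adjusted p = 0.00054), both under the fold limit. Ido2, an enzyme that degrades tryptophan, was lower (log2 fold change -2.23, SE 0.19, adjusted p = 8.7e-06). Its relative Ido1 was lower as well (log2 fold change -2.68, SE 0.63, adjusted p = 0.005), and -3.27 without CT-26 tumors 3 and 4. Of 22 complement genes 3 were called higher (13.6%, against 6.5% of all genes) and 3 lower (13.6%, against 7.62%). Among the latter was C1s1, a protease of the classical pathway, at 207, 190.1, 151 and 89.7 CPM in CT-26 and 26.95, 40.6, 40.5 and 47.7 CPM in Colon 26 (log2 fold change -2.03, SE 0.25, adjusted p = 9.4e-05).

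Among the remaining lists, Hox genes had 6 of 26 called higher and 4 lower (38.5% in all, against 14.1% of all genes), with Hoxa9 at 13.6, 15.1, 17.1 and 18.03 CPM in CT-26 and 7.13, 6.37, 5.84 and 6.34 CPM in Colon 26 (log2 fold change -1.31, SE 0.12, adjusted p = 1.1e-05). Of 18 Notch genes 1 was called higher (5.56%, against 6.5% of all genes), the ligand Jag1 (log2 fold change 1.36, SE 0.14, adjusted p = 2.3e-05). Of 18 genes of the IGF axis 1 was called higher (5.56%) and 2 lower (11.1%, against 7.62% of all genes), with 2 higher without CT-26 tumor 4. The gene called higher was the clearance receptor Igf2r (log2 fold change 1.28, SE 0.06, adjusted p = 2.9e-07). Angiogenic factors had 5 of 22 called higher (22.7%) and 1 lower (4.55%). Both Pdgfc (log2 fold change 2.23, SE 0.21, adjusted p = 1.5e-05) and the endothelial proteoglycan Esm1 (log2 fold change -1.41, SE 0.17, adjusted p = 6.7e-05), the one that was lower, had models that did not overlap. The count of angiogenic genes called higher was 3 without Colon 26 tumor 4, and that called lower was 2 without CT-26 tumor 1, Colon 26 tumor 1 or Colon 26 tumor 4. Cholesterol synthesis had 1 of 23 genes called (0 without CT-26 tumor 1, CT-26 tumor 2 or Colon 26 tumor 4) and the Bcl2 family 2 of 20, both shares under the 14.1% of all genes.

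Several of the lists below changed their counts when 1 tumor was left out, whereas the Schwann cell and B cell counts did not. For the shares below, 6.5% of all genes tested were called higher and 7.62% lower. Of 14 neutrophil genes 1 was called higher and 4 lower, the latter 2 without CT-26 tumor 1, and of 10 adipocyte genes 2 were called higher, with 5 without Colon 26 tumor 1 or Colon 26 tumor 4 and 1 without any other tumor. The summed adipocyte level went the other way, at 401 to 630 CPM in CT-26 and 330 to 383 CPM in Colon 26. All 4 erythroid calls among 5 genes (80.0%) were lower and were lost without CT-26 tumor 1, CT-26 tumor 4, Colon 26 tumor 1 or Colon 26 tumor 3. The 1 keratinocyte gene called lower among 3 (33.3%) was not called without CT-26 tumor 4, and 2 or 3 were called without any other 1 tumor except CT-26 tumor 3. Schwann cell and neuron genes had 3 of 5 called higher (60.0%), among them Pmp22, a myelin protein (log2 fold change 1.75, SE 0.10, adjusted p = 1e-06), which was 8.46 higher on the log2 scale in culture. Of 14 chemokine receptors 1 was called higher (7.14%) and 2 lower (14.3%), with 0 lower without CT-26 tumor 1 or Colon 26 tumor 1, and 1 without any other Colon 26 tumor. Of 15 genes of the epithelial-mesenchymal state 1 was higher (6.67%) and 2 lower (13.3%), with 0 higher without CT-26 tumor 2 and 2 without Colon 26 tumor 4. Of 26 genes of prostaglandin, adenosine and tryptophan metabolism 2 were higher (7.69%) and 3 lower (11.5%), with 1 higher without Colon 26 tumor 2. Of 27 integrin and laminin genes 6 were higher (22.2%) and 4 lower (14.8%). B cell genes had 1 of 3 called lower (33.3%).

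The same comparison was made at the other sizes and in culture, with no library shared. Of the 2192 genes called at 800 mm3, 1488 were called in the same direction at 100 mm3 (67.9% of the 800 mm3 list and 73.0% of the 100 mm3 list) and 1527 at 400 mm3 (69.7% and 70.2%). At all 3 sizes 1293 genes (59.0%) were called in the same direction. Called at 800 mm3 and at neither other size were 466 genes, of which 2 were called by the test of the change from 100 to 800 mm3 and 0 by that from 400 to 800 mm3.

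Few genes were called by edgeR for a change of the model difference with size. From 100 to 800 mm3, 5 of 16238 genes were called (0.0308%), with 2031 at an unadjusted p under 0.05 and 114 called by DESeq2. Without CT-26 tumor 1 edgeR called 128 genes. Hspb7, a small heat shock protein known from heart and muscle, had 7.05, 5.62, 13.9 and 7.47 CPM in CT-26 tumors of 800 mm3 and 0.348, 0.625, 0.457 and 0.3299 CPM in Colon 26 (log2 fold change -4.25, SE 0.35, adjusted p = 6.2e-06), against a log2 fold change of 0.05 at 100 mm3, a change of -4.31 (SE 0.50, adjusted p = 0.0045). Trim72, a membrane repair protein of striated muscle, had 4.64, 3.23, 4.58 and 3.49 CPM in CT-26 and 0.09502, 0.0893, 0.0326 and 0.110 CPM in Colon 26, with log2 fold changes of -5.54 at 800 mm3 and -0.78 at 100 mm3, a change of -4.77 (SE 0.80, adjusted p = 0.088). The skeletal muscle list differed between the models in the same tumors (all 15 genes tested were lower), and its part in these 2 genes was not tested. From 400 to 800 mm3 edgeR called 0 of 16093 genes (0.0%; 1710 at an unadjusted p under 0.05, smallest adjusted p = 0.23) and DESeq2 called 19.

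Of the 2192 genes called in tumors of 800 mm3, 1756 were tested in cultured cells, and 1144 of those were called there too. The direction was the same for 1073 genes (49.0% of the 800 mm3 list and 32.7% of the culture list) and opposite for 71. Called in the tumors and tested but not called in culture were 612 genes, 229 higher and 383 lower in Colon 26. The remaining 436 genes, among them the mast cell genes, Gzma, Gzmb, Prf1 and Arg1, did not pass the low count filter in culture. Rem1, a small GTPase, had a log2 fold change of 4.63 in tumors and 10.69 in culture, and Timp3 of 3.37 and 8.36.

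**Figure D4:**
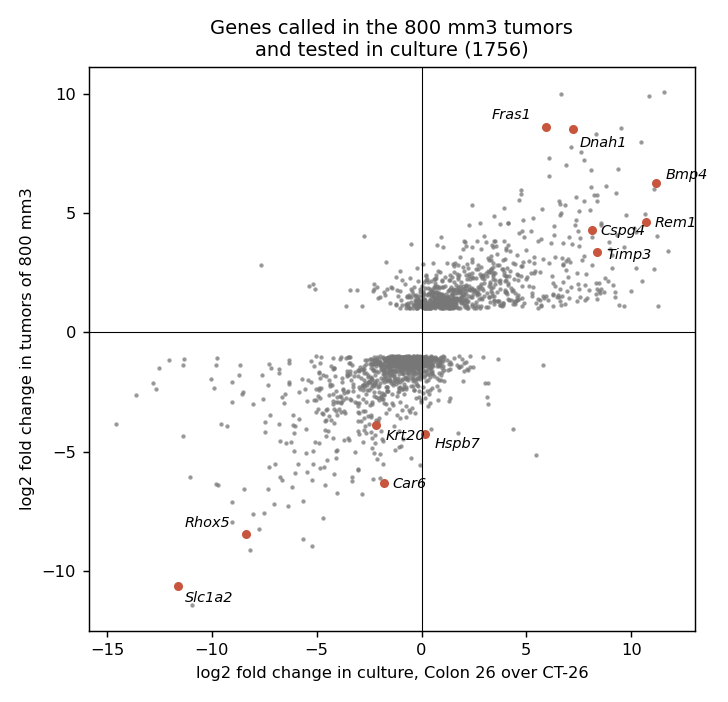
Log2 fold change of Colon 26 over CT-26 in tumors of 800 mm3 (vertical axis) against cultured cells (horizontal axis) for the 1756 genes called in the tumors and tested in culture. Each point is 1 gene and no point lies between -1 and 1 on the vertical axis because of the fold limit, with Slc1a2 and Rhox5 far below 0 and Dnah1, Fras1 and Bmp4 far above 0 on both axes, and Hspb7 near 0 in culture only.

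Differences were also uneven along the genome. On chromosome 13 the median log2 fold change was -0.393 over 594 genes tested, 21.9% of them were positive, and 28 were called higher and 87 lower. Chromosome 15 had a median of -0.358 (606 genes), chromosome 1 of -0.260 (970 genes) and chromosome 9 of 0.192 (879 genes). In cultured cells the medians of these 4 chromosomes were -0.570, -0.218, -0.350 and 0.252, and at 100 mm3 they were -0.425, -0.300, -0.304 and 0.186. The sign was thus the same in all of these comparisons, and copy number was not measured.

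**Figure D5:**
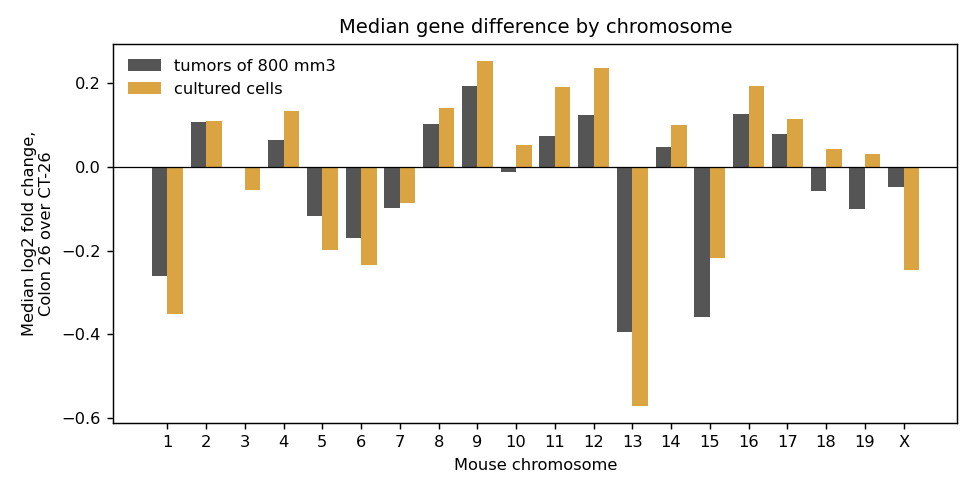
Median log2 fold change of Colon 26 over CT-26 for the genes of each mouse chromosome, in tumors of 800 mm3 (gray bars) and in cultured cells (yellow bars). Chromosomes 13, 15 and 1 have the lowest tumor medians (-0.393, -0.358 and -0.260) and chromosome 9 the highest (0.192), with the same sign in culture.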

How the data were processed

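RNA-seq libraries of 8 tumors were compared, 4 CT-26 against 4 Colon 26, all of the 800 mm3 size class. The authors deposited estimated counts per gene for the Ensembl release 78 gene set, made in Array Studio, of which 22.7% of the values above 0 are not whole numbers (tolerance 1e-09), and the authors deposited FPKM values of the same genes (fragments scaled by gene length and library total), used here as an alternative. The aligner, the genome build and the use of strand are not given in the sources used here. The submitters' processing notes name DESeq2 1.24.0. Symbols and coordinates were taken from GENCODE vM21 (GRCm38), which matched 52207 of 53431 identifiers (97.7%), and the 1224 others keep their identifier.

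Estimated counts were rounded, filtered with filterByExpr, scaled by TMM and tested with edgeR 4.0.16 (R 4.3.3), with Benjamini-Hochberg adjustment over all genes tested. The SE of a log2 fold change was computed from the estimate and its F statistic. The changes with tumor size were tested as model by size interactions over 16 tumors each. At floor level means at most 3 counts in every library of a group, and counting intervals are 95% and cover counting error only. The estimated biological coefficient of variation was 14.6%. The labels give no batch and do not say whether the tumors came from separate experiments, so p-values measure the spread between these tumors.

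The size class, the 52 gene lists (1156 genes) and the naming rule were chosen with earlier results of these data known. Genes were named if they were among the 12 most extreme protein coding genes in each direction (mean count of at least 200), defining genes of a list or up to 4 called members of a list in each direction (mean count of at least 50), called in an interaction (mean count of at least 100) or at floor level in 1 model. The 12 most extreme genes in each direction were taken only from called genes whose models did not overlap, with clone names left out. Csf1, Ifnar1, Ifnar2, Jak2, Pvr, Rrm2, Stat2, Tigit, Trim72 and Wnt5b were named after their values were seen. Slc1a2, Dnah1, Fras1, Bmp4, Irf7, Tgtp1, Psmb9, Timp3, Erbb2, Tgfa, Tgfb2, Axin2, Lef1, Wnt5a, Car9, C1s1, Cd274, Csf1r, Ddit3, Nectin2, Ntng2, Fgfr1, Pdgfra, Myh1, Trim72, Jak1, Ifnar2, Pole and others overlap another annotated gene, and their reads may include its reads. A few genes are not reported here by name and remain in the counts over lists and over all genes.

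Alternatives were DESeq2 1.42.0, RLE or library size scaling, other filters, limma 3.58.1 on log2(FPKM + 1) and log2(FPKM + 0.1), wider fits, tumor volume as a covariate, other thresholds and leaving out each tumor. On counts simulated from the 8 libraries with 200 genes changed by a log2 fold change of 2, edgeR called 199 of them and 5 others, among 15348 genes tested. The changed genes were drawn only from those with a mean count of at least 50, so recovery of genes with fewer counts or smaller changes was not assessed. Promoter windows of 250 bases before the start were taken from RefSeq (GRCm38.p6).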

Additional observations from a re-analysis of the deposited data

Results flagged for a closer look

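Tumors that stood far from the others of their group were looked for in the log2 CPM of the named genes and in the summed marker lists, by dividing the gap between the extreme tumor and its nearest neighbor by the range of the 4 tumors. Of 522 groups screened 28 passed Dixon's 95% critical value for 4 tumors, which is near the 5% that chance gives. The flags below are therefore a list of values and do not show that a tumor was unusual.

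Colon 26 tumor 1 was low for 4 genes, with ratios of 0.940 for Irf7, 0.842 for Oas2, 0.860 for Psmb9 and 0.845 for Gzma, and high for Ntng2 (0.914). Irf7 and Oas2 are members of the interferon-stimulated list, Psmb9 of the MHC class I list and Gzma of the NK and cytotoxic cell list. Colon 26 tumor 1 also had the lowest summed level of the interferon-stimulated list, 1309 CPM. CT-26 tumor 4 was low for H2-K1 (0.843), Tgfa (0.842), Ltbp2 (0.935) and the summed hypoxia and glycolysis list (0.950), and high for Fzd6 (0.930) and the summed skin keratinocyte list (0.908).

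CT-26 tumor 1 was high for Cxcl14 (0.915), Nectin2 (0.907), the summed neutrophil list (0.841) and the summed collagen list (0.892), and low for Fst (0.944). Colon 26 tumor 2 was high for the summed neutrophil list (0.920) and the summed Schwann cell and neuron list (0.842), and low for Lama3 (0.853). CT-26 tumor 2 was low for Col20a1 (0.860) and Egfr (0.866) and high for Ido2 (0.887). CT-26 tumor 3 was low for Sfrp2 (0.898), Fgfr1 (0.840) and Rrm2 (0.831). Colon 26 tumor 3 was low for Pecam1 (0.917), Gstm1 (0.861) and the summed endothelial list (0.831). No explanation of these values was tested.

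For 5 genes the model difference at 800 mm3 differed from that at 100 mm3 in edgeR's interaction test. The difference of log2 fold changes was -4.31 for Hspb7, -4.77 for Trim72, -2.49 for Gm39822, 2.83 for Gm9042 and 1.06 for Gm32618, with adjusted p-values of 0.0045, 0.088, 0.023, 0.088 and 0.088. Gm39822 had a log2 fold change of -2.54 at 800 mm3 and -0.07 at 100 mm3, and Gm32618 of 0.84 and -0.23. Gm9042 did not pass the low count filter at 800 mm3.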

How the results depend on the processing

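The 2192 calls (1009 higher, 1183 lower) gave 3469 (1551 and 1918) with no filter, 914 (395 and 519) with limma on log2(FPKM + 1), 9213 (4396 and 4817) with no minimum fold change and 765 (327 and 438) with a minimum log2 fold change of 2, and the lower count was 766 with at least 10 counts in every library. Leaving out 1 tumor gave 2254 to 2479 calls, 1026 to 1253 higher and 1193 to 1304 lower. DESeq2 called 2865 genes, among them 2142 (97.7%) of the 2192. Scaling by library size alone moved the median log2 fold change of all genes to 0.059 and called 1115 higher and 1080 lower, a higher share of the upward calls. The interaction with 100 mm3 called 114 genes with DESeq2, 3 with library size scaling, 8 with all 24 tumors, 2 at an adjusted p of 0.05, 13 with no minimum fold change and 2 to 128 with 1 tumor left out (128 without CT-26 tumor 1), and that with 400 mm3 called 19 with DESeq2 and 0 to 1 with 1 tumor left out. The genes shared with culture in direction numbered 5632 with no minimum fold change and 1070 to 1124 with 1 tumor left out. Of 4022 values of 214 named genes under alternatives 192 lost and 21 gained a call and 0 changed direction, and of 624 list counts 63 moved by more than 1.5 times. The causes were not tested. No paired analysis was possible because the labels give the tumors no replicate numbers. Depth limits genes near 0 in 1 model, whose fold changes depend on a few counts.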
